A study of Mus musculus with 11 samples.

Results

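The SH3BGR family (SH3 domain-binding glutamic acid-rich proteins) has 4 genes in the list examined here: Sh3bgr, Sh3bgrl, Sh3bgrl2 and Sh3bgrl3. Members were taken as the rows of the expression table whose RefSeq accession maps to these symbols in GRCm38. Of the 4 genes, 3 had such a row, of 21878 rows in all: Sh3bgrl3, Sh3bgrl and Sh3bgrl2. No row mapped to Sh3bgr, the founding member, and it was not analysed here. The family was picked because Sh3bgrl3 was among the genes that differed between the groups in these same samples, so the group differences of its members are given as a description and support nothing further.

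Hearts of female mice were compared in 2 groups, all labelled wild type. The PCOS group (5 samples) came from a model of polycystic ovary syndrome made by prenatal exposure to anti-Müllerian hormone (AMH). The control group (6 samples) received PBS, the vehicle, before birth. The labels give no age or litter, nor whether each sample is a different mouse. A heart below means a sample, not a known separate animal. The p-values therefore speak of sample-to-sample spread, which may be technical. Each value is an FPKM, a fragment count scaled for transcript length and library size, so levels of different genes can be set side by side. The values correspond to 11866291 to 14346620 reads per sample.

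Proteins of this family are small and share the thioredoxin-like fold of the glutaredoxins, but they lack the full set of active-site cysteines that glutaredoxins use to reduce disulfides. Sh3bgr is known from heart and skeletal muscle and carries the glutamic acid-rich tail that named the family, while Sh3bgrl, Sh3bgrl2 and Sh3bgrl3 are short adaptor-like proteins found in many tissues. Human SH3BGRL3 is also known as a TNF inhibitory protein, and human SH3BGRL has been described as a partner of the receptor ERBB2.

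The measured genes lie on different chromosomes of GRCm38. Sh3bgrl3 is a compact gene on chromosome 4 from 134127406 to 134128733, on the minus strand, with 3 exons in the GENCODE M21 transcript. Sh3bgrl lies on the X chromosome from 109095407 to 109162467 and Sh3bgrl2 on chromosome 9 from 83548338 to 83600292, both on the plus strand with 4 exons. The start regions of Sh3bgrl3 and Sh3bgrl are printed here because these are the most abundant members and only the first had an adjusted p under 0.05 between the groups. Each runs from 250 bases before to 50 bases after the annotated start (RefSeq, GRCm38.p6), 5′ to 3′ on the gene's strand, at chr4:134128684-134128983 on the minus strand and chrX:109095157-109095456 on the plus strand. Capitals mark matches, on either strand, to the motifs GGGCGG and CCAAT.
Sh3bgrl3: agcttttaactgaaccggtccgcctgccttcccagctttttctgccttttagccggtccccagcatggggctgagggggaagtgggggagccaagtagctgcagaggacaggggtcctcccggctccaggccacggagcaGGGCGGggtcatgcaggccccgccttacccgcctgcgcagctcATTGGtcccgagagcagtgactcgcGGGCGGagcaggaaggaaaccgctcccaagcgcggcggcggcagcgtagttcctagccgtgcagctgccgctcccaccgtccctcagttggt
Sh3bgrl: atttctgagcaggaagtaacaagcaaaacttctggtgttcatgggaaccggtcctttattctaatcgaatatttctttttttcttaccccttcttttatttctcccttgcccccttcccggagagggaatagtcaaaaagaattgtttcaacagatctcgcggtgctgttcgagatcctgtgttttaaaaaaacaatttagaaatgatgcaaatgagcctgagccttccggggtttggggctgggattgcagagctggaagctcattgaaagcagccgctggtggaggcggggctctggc

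The start region of Sh3bgrl3 was 66.7% G and C and held 22 CpG dinucleotides, 2 matches to GGGCGG and 1 to CCAAT. That of Sh3bgrl was 46.0% G and C with 9 CpG dinucleotides and no match to either motif. The region of Sh3bgrl2 was 65.0% G and C with 32 CpG dinucleotides and 1 match to CCAAT. Among 7726 such regions of tested genes, 66.0% held GGGCGG and 38.8% held CCAAT on either strand. The TATA motif TATAAA was in 0 of the 3 member regions and in 7.25% of the 7726. The hexamer GAGGAA, only 1 form of an ETS site, was likewise in 0 of the 3 and in 26.7% of all. Other forms of ETS site were not searched, so their presence in these regions is left open. The AP-1 motif TGACTCA was in 0 of the 3 and in 3.4% of all. Both strands were searched for each. The motifs do not overlap one another in these windows, and the matches describe letters only.

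One library differs from all others and touches several results. In control replicate 6 the median across-gene Pearson correlation to the remaining libraries was 0.962, while each of the other 10 had 0.987 to 0.993. It held liver transcripts: the summed level of 8 hepatocyte markers was 1707 FPKM, where PCOS hearts had 4.44 to 6.28 FPKM and the other 5 controls 4.78 to 12.9 FPKM. Alb, which encodes serum albumin, was at 851.7 FPKM in it. All 3 members had their highest control value in this library, and the part of the liver transcripts in these values was not tested. Values with and without it are therefore given.

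Sh3bgrl3 was the most abundant measured member in all 11 hearts, followed by Sh3bgrl and then Sh3bgrl2. Averaged over all samples they stood at 37.4 FPKM, 16.9 FPKM and 1.24 FPKM, or ranks 1577, 3075 and 10488 among 10891 tested rows. Testing required a mean of 1 FPKM or more, which all 3 members reached, Sh3bgrl2 narrowly. In every sample Sh3bgrl had more reads than Sh3bgrl3, at 419 to 963 against 245 to 469. The order by FPKM thus rests on the transcript lengths that the FPKM values imply, 2836 bases for Sh3bgrl and 707 for Sh3bgrl3. On the log2(FPKM + 1) scale Sh3bgrl3 lay above Sh3bgrl by a mean level difference of 1.10 ± 0.36 (SD, n = 11) and was higher in 11 of 11 samples (exact two-sided sign-flip permutation test within samples, adjusted p = 0.000977). Sh3bgrl lay above Sh3bgrl2 by 2.99 ± 0.18 (SD, n = 11), again in 11 of 11 samples (same exact test, adjusted p = 0.000977). That is the smallest p the 11 samples can give. The order tested was that of the means in these same samples. Adding 1 before the logarithm narrows the step from Sh3bgrl to Sh3bgrl2, which was at 1.24 FPKM. With 0.1 added instead, that step was 3.68 ± 0.24 (SD, n = 11). Both steps of the order were thus larger than the spread between samples. Within the groups the Sh3bgrl3 step was 1.41 ± 0.21 in PCOS hearts (n = 5) and 0.84 ± 0.22 in control hearts (n = 6), SD in both. The gap between the groups holds the same contrast that chose Sh3bgrl3 and was not tested. For the step within a group, the exact sign-flip p was 0.0625 in PCOS hearts, the smallest that 5 samples allow. In control hearts it was 0.0312, the smallest that 6 allow.

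Sh3bgrl3 was higher in PCOS hearts. In whole hearts, more cells of a type and more RNA per cell cannot be told apart. Sh3bgrl3 had 49.1, 47.9, 43.5, 38.4 and 45.6 FPKM in PCOS replicates 1 to 5, against a lowest value of 28.4, a median of 30.0 and a highest value of 39.5 FPKM in the 6 control hearts. The groups overlapped only through control replicate 6, which at 39.5 FPKM lay above PCOS replicate 4, while the other 5 controls lay between 28.4 and 30.1 FPKM. The means were 44.9 ± 4.25 FPKM in PCOS hearts (SD, n = 5) and 31.2 ± 4.12 FPKM in control hearts (SD, n = 6). Fitted with limma over all tested rows, the difference was 0.51 on the log2(FPKM + 1) scale (SE 0.090, 95% confidence interval 0.32 to 0.71, adjusted p = 0.0479, higher than the control mean in 5 of 5 PCOS samples). This is the value that brought the family into view, and it lies just inside the threshold of 0.05. The next row by p, Retnla, lies just outside at an adjusted p of 0.0508. Of the 3 measured members 1 was called, where 0.138% of all tested rows were called. In 0 of the 3 members did every PCOS heart lie above every control, where 0.45% of all tested rows did. Without control replicate 6 the Sh3bgrl3 difference was 0.58 (limma, SE 0.066, 95% confidence interval 0.44 to 0.72, adjusted p = 0.00083), and every PCOS heart lay above every remaining control. Without that library 1 of the 3 members was again called, where 0.296% of rows were called in either direction and 0.268% higher in PCOS, and 1.71% had all PCOS samples above all controls.

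**Figure D1:**
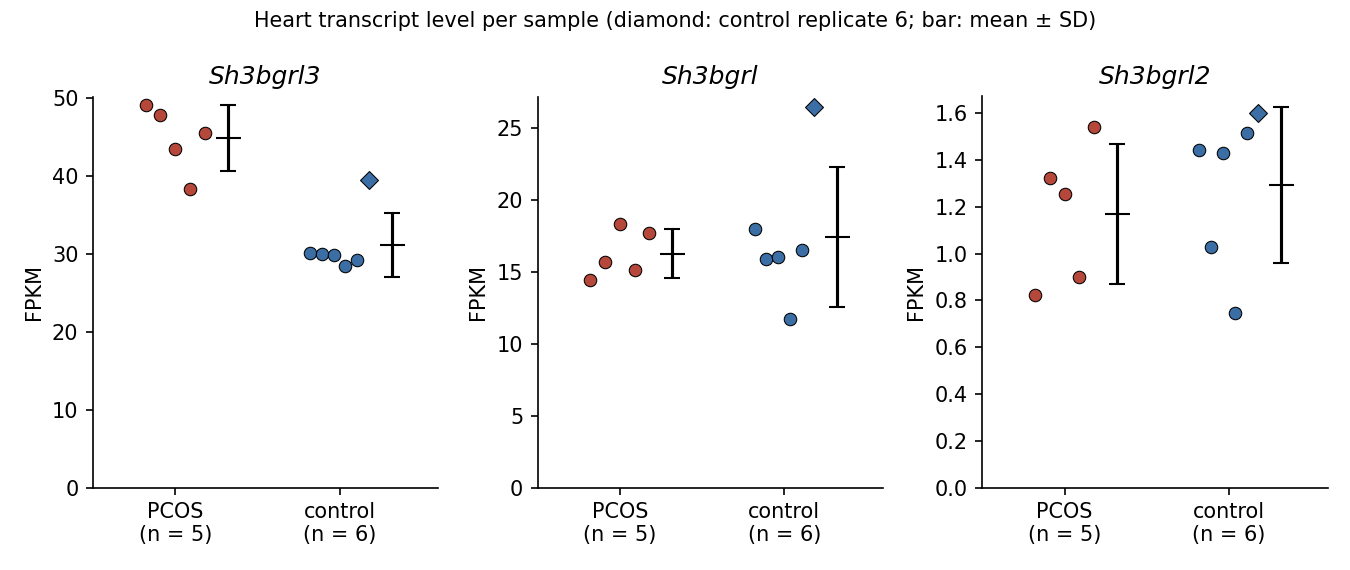
FPKM of Sh3bgrl3, Sh3bgrl and Sh3bgrl2 in each heart, PCOS (5 samples) left of control (6 samples), with mean and SD beside the points; control replicate 6 is a diamond. The PCOS points of Sh3bgrl3 run from 38.4 to 49.1 FPKM and 5 of the 6 control points from 28.4 to 30.1 FPKM, while both other members overlap.

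Among the 5 other controls the Sh3bgrl3 level varied little, at 29.6 ± 0.72 FPKM (SD, n = 5). That is a coefficient of variation of 2.44%, where counting error at these read numbers would alone give 6.04%. A spread below counting error understates the true spread. The SE and adjusted p of the fit without control replicate 6 rest in part on it. In PCOS hearts the coefficient of variation was 9.47%, and counting error would give 4.84%. The values rest on 352 to 469 reads per PCOS sample and 245 to 359 reads per control sample, as recovered from the steps of the FPKM values.

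Whether Sh3bgrl3 passed the threshold depended on the processing. Over 22 alternative fits the difference stayed positive in 22, between 0.48 and 0.58, and 8 of the 22 passed an adjusted p of 0.05 in limma, with values from 0.00083 to 0.385. Among the fits that leave out 1 sample, those without control replicate 6 and without PCOS replicate 4 passed. The other 9 did not.

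**Figure D2:**
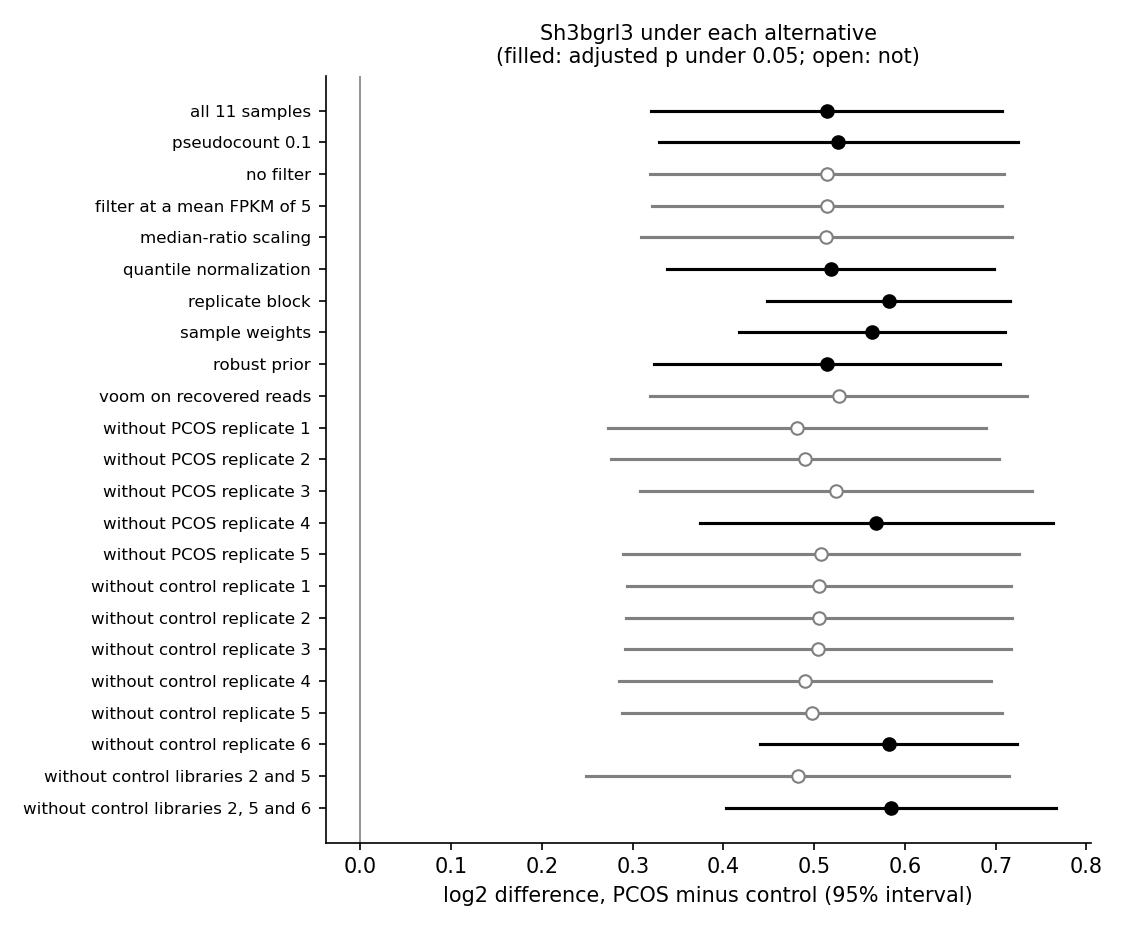
Difference of Sh3bgrl3 (PCOS minus control, log2 scale) with its 95% confidence interval, for all 11 samples and for 22 alternatives, one per row; filled points have an adjusted p under 0.05. Every point lies between 0.48 and 0.58.

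Sh3bgrl, the closest member in level, had overlapping groups. It had 14.4, 15.7, 18.3, 15.1 and 17.7 FPKM in PCOS replicates 1 to 5, against a lowest value of 11.7, a median of 16.2 and a highest value of 26.4 FPKM in control hearts. The lowest and the highest hearts were both controls, replicates 4 and 6. The difference was −0.062 (SE 0.15, 95% confidence interval −0.38 to 0.26) on the log2(FPKM + 1) scale. Without control replicate 6 it was 0.061 (SE 0.10, 95% confidence interval −0.16 to 0.28), so its sign depends on that library.

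Sh3bgrl2 was near the lower limit of what was tested. It had 0.825, 1.32, 1.25, 0.902 and 1.54 FPKM in PCOS replicates 1 to 5, against a lowest value of 0.746, a median of 1.44 and a highest value of 1.6 FPKM in control hearts. The groups overlapped over nearly their whole range. The difference was −0.078 (SE 0.13, 95% confidence interval −0.35 to 0.19) on the log2(FPKM + 1) scale, which understates changes at this level. These values rest on 39 to 74 reads per PCOS sample and 33 to 72 reads per control sample, for which counting error alone gives a coefficient of variation of 13.5% in PCOS and 13% in control hearts.

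Ratios within a library do not change when all its values are rescaled. The ratio of Sh3bgrl3 to Sh3bgrl was 3.41, 3.06, 2.37, 2.53 and 2.57 in PCOS replicates 1 to 5, against a lowest value of 1.5, a median of 1.82 and a highest value of 2.43 in control hearts. Control replicate 4, the heart with the least Sh3bgrl, overlapped the lowest PCOS heart, and control replicate 6 gave the lowest ratio. Sh3bgrl3 made up 68.9% to 76.4% of the summed FPKM of the 3 members in PCOS hearts and 58.5% to 69.6% in control hearts. The ratio of Sh3bgrl to Sh3bgrl2 was 11.5 to 17.4 in PCOS hearts and 10.9 to 16.5 in control hearts. These ratios hold the same contrast that chose Sh3bgrl3 and are given without a test.

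**Figure D3:**
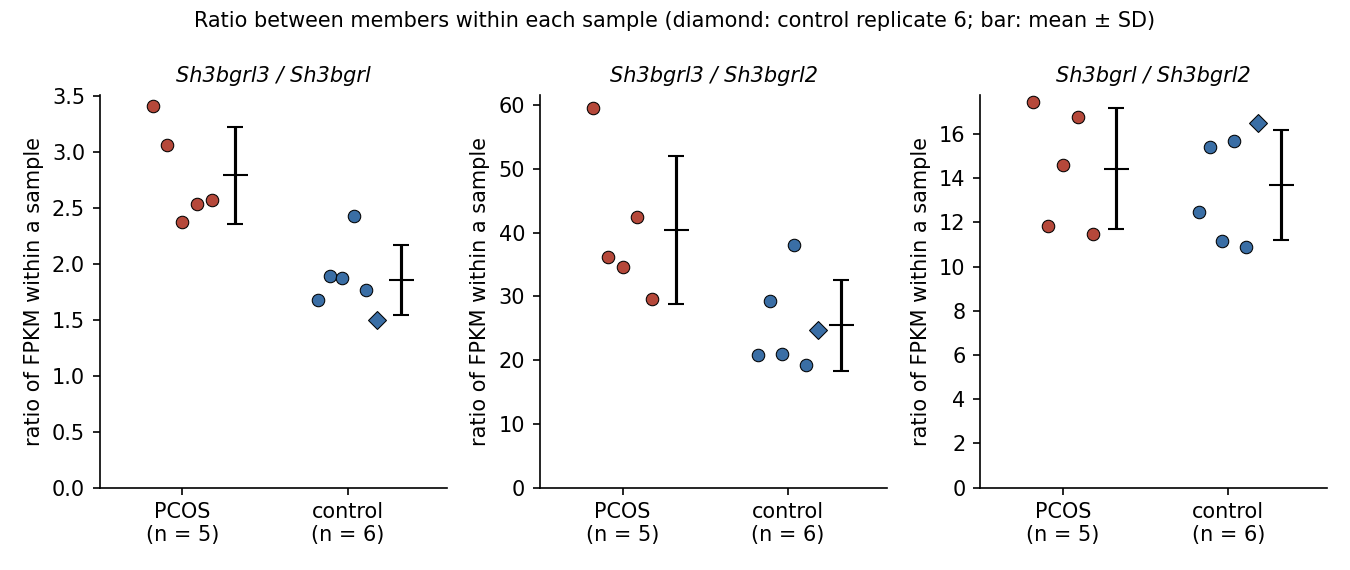
Ratio of FPKM between members within each heart, PCOS left of control, with mean and SD; control replicate 6 is a diamond. The Sh3bgrl3 to Sh3bgrl ratio runs from 2.37 to 3.41 in PCOS and from 1.5 to 2.43 in control hearts, and the Sh3bgrl to Sh3bgrl2 ratio overlaps between the groups over most of its range.

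After each group's mean was taken out, which removes the contrast that chose Sh3bgrl3, Sh3bgrl and Sh3bgrl2 varied together from heart to heart. Over the 11 hearts Pearson's r was 0.75 (permutation p = 0.00911, adjusted p = 0.0273 over 3 pairs) and Spearman's rho 0.82 (permutation p = 0.00709, adjusted p = 0.0213). Control replicate 4 was lowest in both genes and control replicate 6 highest in Sh3bgrl. Without these 2 hearts, the farthest from the median of Sh3bgrl, r was 0.71 (permutation p = 0.0654, adjusted p = 0.196), and without control replicate 4 alone it was 0.57 (permutation p = 0.0728). Without control replicate 6 alone it was 0.84 (permutation p = 0.0074). How many other pairs of tested rows reach such an r was not examined. Genes outside the family reached 0.98 with Sh3bgrl and 0.96 with Sh3bgrl2, so the relation is not particular to the family.

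Sh3bgrl3 did not pass with either relative. With Sh3bgrl its r was 0.67 (permutation p = 0.0783, adjusted p = 0.117) and rho 0.50 (permutation p = 0.132). Without control replicate 6 this r was 0.11 (permutation p = 0.758). Without that library and PCOS replicate 4, the 2 farthest, r was −0.11 (permutation p = 0.778). Leaving out PCOS replicate 4 alone gave 0.71 (permutation p = 0.117), so the value rests on control replicate 6. Without PCOS replicate 1 the r of this pair was 0.79 (permutation p = 0.0179), which passed (adjusted p = 0.0361). With Sh3bgrl2 the r of Sh3bgrl3 was 0.40 (permutation p = 0.266, adjusted p = 0.266) and rho 0.43 (permutation p = 0.198). Without control replicate 6 and PCOS replicate 4 that r was −0.10 (permutation p = 0.813).

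**Figure D4:**
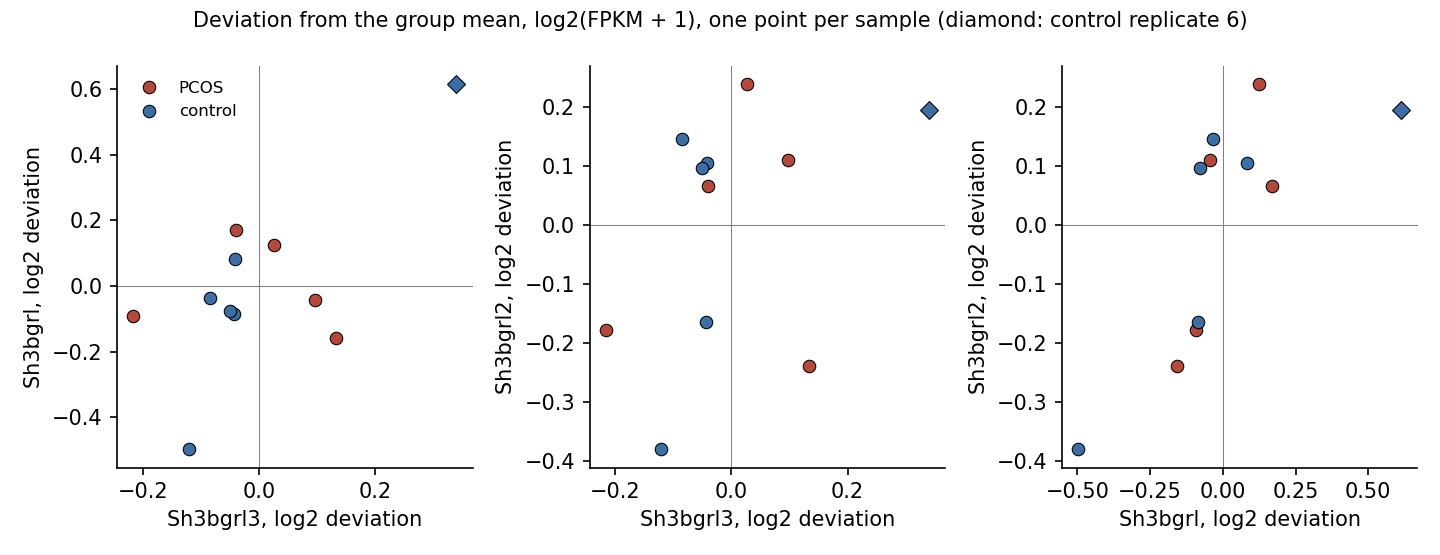
Deviation of each member from its group mean on the log2(FPKM + 1) scale, one point per heart, for the 3 pairs of members; control replicate 6 is a diamond. Sh3bgrl and Sh3bgrl2 deviate together (r = 0.75, n = 11), while in both panels with Sh3bgrl3 the diamond lies at the right edge, away from the other points.

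The hearts carried cardiomyocyte markers at a summed level of 34308 to 36882 FPKM in PCOS and 30823 to 35360 FPKM in control samples, while skeletal muscle markers were near 0 and Myh4 was at 0 in all samples. Macrophage, erythroid and platelet markers had positive median differences beside that of Sh3bgrl3. So did smooth muscle and pericyte (0.13), lymphocyte (0.13, 1 tested marker) and cardiomyocyte markers (0.037). Medians were negative for neutrophil (−0.18), endothelial (−0.081), fibroblast (−0.0075) and adipocyte markers (−0.40, 1 tested marker). That of hepatocyte markers was −1.02, and 0.0046 without control replicate 6. The summed macrophage level over the 9 markers in the table was 278.8 to 388.6 FPKM in PCOS hearts and 130.4 to 251.4 FPKM in control hearts, without overlap. Of single tested rows, 0.45% had every PCOS heart above every control. Of 6 tested macrophage markers all had a positive difference and 1 passed, Cd68, where 0.138% of all tested rows passed. Cd68, a lysosomal glycoprotein of macrophages, was at 17.6 ± 2.22 FPKM in PCOS (SD, n = 5) and 4.78 ± 1.66 FPKM in control hearts (SD, n = 6). Its difference was 1.73 (limma, SE 0.17, adjusted p = 0.000298). Lyz2, macrophage lysozyme and the most abundant of the list, differed by 0.79 (limma, SE 0.17, adjusted p = 0.152). The median of the macrophage list was 0.58, against 0.0017 over all tested rows. The other 3 markers in the table were too low to be tested and averaged slightly lower in PCOS hearts. Fcgr1 averaged 0.765 FPKM in PCOS and 0.798 FPKM in control hearts, Cx3cr1 averaged 0.365 FPKM in PCOS and 0.444 FPKM in control hearts, and Itgam averaged 0.649 FPKM in PCOS and 0.716 FPKM in control hearts. Adgre1 and Csf1r had no row. The erythroid list had a larger median difference than the macrophage list, 0.75, with 5 of 5 tested markers positive and 0 called. Its summed level was 849.5 to 2229 FPKM in PCOS and 530.3 to 1528 FPKM in control hearts, with overlap. The 0 called there, as in the platelet list, is to be read against the 0.138% of all tested rows. The platelet list had a median of 0.29, with 2 of 2 tested markers positive and 0 called, and a summed level of 17.5 to 23.6 FPKM in PCOS and 12 to 26.4 FPKM in control hearts. The part of these cells in the Sh3bgrl3 difference was not tested.

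Within the groups, the relation of Sh3bgrl3 with the macrophage sum did not pass. Its r was 0.40 (permutation p = 0.315, adjusted p = 0.36 over 24 relations of 3 members with 8 marker sums) and rho 0.39 (permutation p = 0.243). Without control replicate 6 the r was 0.05 (permutation p = 0.883), and without the 2 hearts farthest in the macrophage sum it was 0.51 (permutation p = 0.23, adjusted p = 0.711). Its r was larger with the hepatocyte sum (0.80, permutation p = 0.0329, adjusted p = 0.0879), the platelet sum (0.71, permutation p = 0.0171, adjusted p = 0.0752) and the erythroid sum (0.70, permutation p = 0.0188, adjusted p = 0.0752), none of which passed. When control replicate 6 was left out, r was 0.18 with the hepatocyte sum, 0.35 with the platelet sum and 0.66 with the erythroid sum. With the macrophage sum, Sh3bgrl had an r of 0.79 (permutation p = 0.0119, adjusted p = 0.0752) and Sh3bgrl2 an r of 0.69 (permutation p = 0.03, adjusted p = 0.0879). A p that misses the threshold over 11 hearts does not show that values are unrelated. These relations were added after the data were seen.

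Of the 24 relations 1 passed by Pearson's r, Sh3bgrl2 with the fibroblast sum. Its r was 0.84 (permutation p = 0.00051, adjusted p = 0.0122) and rho 0.85 (permutation p = 0.00095, adjusted p = 0.0114). Control replicate 4, lowest in Sh3bgrl2, had the lowest fibroblast sum, 158.7 FPKM, where the other 10 hearts had 250.8 to 331.7 FPKM. Without it r was 0.78 (permutation p = 0.00483, adjusted p = 0.058), without control replicate 2 it was 0.86 (adjusted permutation p = 0.0588), and without the 2 hearts farthest in the fibroblast sum 0.80 (permutation p = 0.0128, adjusted p = 0.102). Sh3bgrl had an r of 0.85 with the same sum (permutation p = 0.0157, adjusted p = 0.0752) and a rho of 0.90 (permutation p = 0.00026, adjusted p = 0.00624). Without control replicate 6 its r was 0.92 (permutation p = 0.00087, adjusted p = 0.0209). Control replicate 4 also had the lowest endothelial sum, 156.3 FPKM, and the lowest macrophage sum, 130.4 FPKM. The share of all tested rows that would pass with the same sums was not examined. By rho 6 of the 24 relations passed, with other sums as well as the fibroblast sum. Besides the fibroblast sum they were Sh3bgrl2 with the endothelial sum (rho 0.85, adjusted permutation p = 0.0204) and the hepatocyte sum (rho 0.61, adjusted permutation p = 0.0454), and Sh3bgrl with the macrophage sum (rho 0.79, adjusted permutation p = 0.042) and the hepatocyte sum (rho 0.63, adjusted permutation p = 0.042). Whether the fibroblast relation differs from these was not tested. Of 6 fibroblast markers 0 were called between the groups, where 0.138% of all tested rows were. Their median difference was −0.0075. Dcn, a matrix proteoglycan and the most abundant of them, was at 204.8 ± 12 FPKM in PCOS (SD, n = 5) and 189.9 ± 45.2 FPKM in control hearts (SD, n = 6). Lum, a related proteoglycan with the smallest p of the list, differed by −0.22 (SE 0.15).

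**Figure D5:**
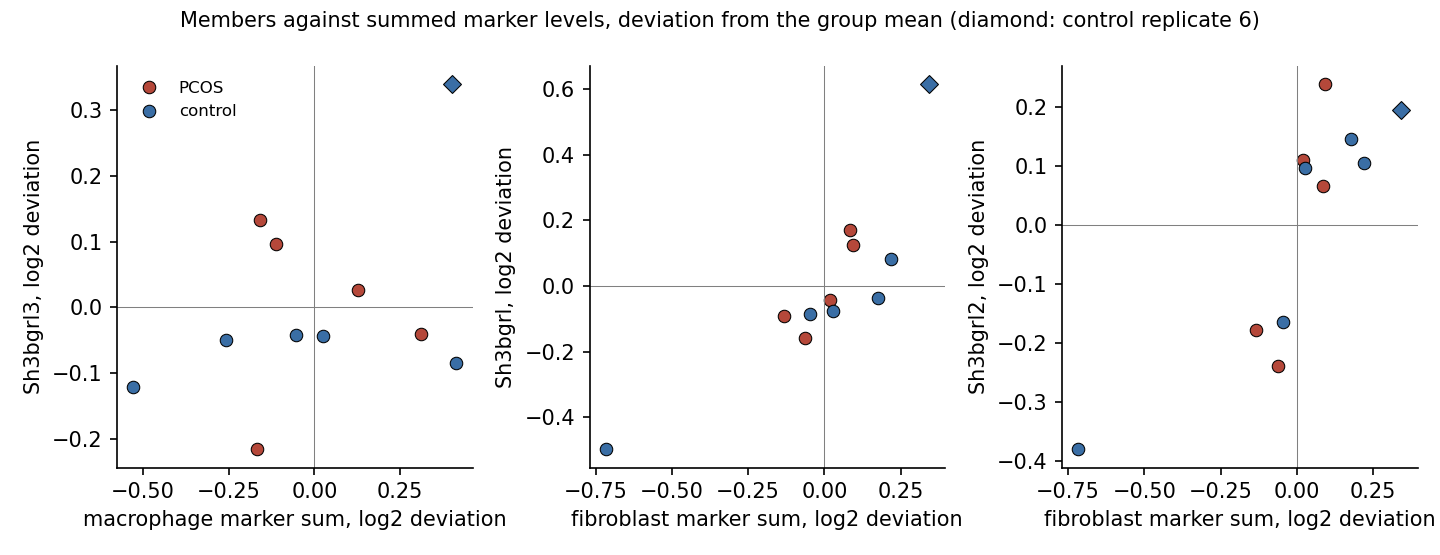
Deviation of a member from its group mean (vertical, log2 scale) against the deviation of a summed marker level (horizontal, log2 scale), one point per heart; control replicate 6 is a diamond. The r of Sh3bgrl3 with the macrophage sum is 0.40, while Sh3bgrl (r = 0.85) and Sh3bgrl2 (r = 0.84) are low in the heart with the least fibroblast marker RNA, at the lower left.

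The genes most like each member were taken as the 3 with the highest Pearson correlation of group-centred log2(FPKM + 1) over the 11 hearts, as a description chosen from all tested rows. For Sh3bgrl3 they included Rpl29, a ribosomal protein (r = 0.95), and Cuta (r = 0.94). Neither of these was called between the groups (limma adjusted p = 0.756 for Rpl29 and 0.738 for Cuta). Their r was 0.87 for Rpl29 and 0.85 for Cuta in the 10 hearts without control replicate 6, where Sec13, a coat protein of secretory vesicles, came first instead (r = 0.97). For Sh3bgrl they were Tmem165 (r = 0.98), Gmfb (r = 0.97) and Ugdh (r = 0.97), the enzyme that makes UDP-glucuronate. Gmfb stayed among the nearest 3 without control replicate 6 (r = 0.98), now beside the fibroblast marker Lum (r = 0.98). For Sh3bgrl2 they were Cnrip1 (r = 0.96), Apcdd1 (r = 0.92) and Endod1 (r = 0.92). The points share library, depth and tissue make-up.

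Of the nearest tested genes on each side of the members, 0 of 6 were called, where 0.138% of all tested rows were. Some of them are far away. The nearest tested genes of Sh3bgrl3 are Cep85, 1125 bases away, and Cd52, which encodes a leukocyte surface peptide, 32333 bases away on the other side. Cep85 was at 10.8 ± 0.832 FPKM in PCOS (SD, n = 5) and 11 ± 1.49 FPKM in control hearts (SD, n = 6), a difference of −0.014 (SE 0.090). Cd52 was at 8.0 ± 3.88 FPKM in PCOS and 8.43 ± 3.19 FPKM in control hearts, a difference of −0.10 (SE 0.28). For Sh3bgrl they were Hmgn5, 82027 bases away, with a difference of 0.020 (SE 0.063), and Apool, 3148885 bases away, with 0.047 (SE 0.090). For Sh3bgrl2 they were Hmgn3, 400980 bases away, with 0.19 (SE 0.12), and Bckdhb, 324819 bases away, with 0.027 (SE 0.055). In GENCODE M21 the last 188 bases of the Sh3bgrl3 transcript, 25.3% of its exons, also belong to a transcript of Ubxn11 on the other strand, and how strand was handled in counting is not given in the sources used here. Ubxn11 was at 0.166 to 0.436 FPKM in PCOS and 0.149 to 0.263 FPKM in control hearts, far below Sh3bgrl3. Stretches of at least 50 bases at 90% identity or more to transcripts of other genes were found in 833 genes for Sh3bgrl, each at most 92 bases long. For Sh3bgrl2 there were 0 such genes, and for Sh3bgrl3 1, the overlap with Ubxn11. Sh3bgr is 1 of these 833 genes for Sh3bgrl, at 95.8% identity over 72 bases. Whether that stretch is a repeat found in many genes or a likeness within the family was not tested. At any identity, the transcript of Sh3bgrl aligned with those of 2 other family members, that of Sh3bgrl2 with 1 and that of Sh3bgrl3 with 0. How reads from the Sh3bgrl stretches were assigned is not given in the sources used here.

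Other genes with a thioredoxin-like fold or in the thiol redox system lay near the median of all rows. Of 22 such genes 21 were tested, 13 had a positive difference and the median was 0.012, against 0.0017 over all tested rows. In either direction 0 were called, and with 0.138% of all tested rows called this count says nothing particular about the list. Those with the smallest p were Txnrd2, the mitochondrial thioredoxin reductase (difference 0.13, SE 0.065, limma adjusted p = 0.738), Prdx5, a peroxiredoxin (0.17, SE 0.090, adjusted p = 0.738), and Gsr, glutathione reductase (−0.12, SE 0.087, adjusted p = 0.784). Prdx5 was at 845 ± 65.7 FPKM in PCOS (SD, n = 5) and 752.2 ± 105.5 FPKM in control hearts (SD, n = 6), and control replicate 6 was the highest control at 951.3 FPKM. The glutaredoxins Glrx2, Glrx3 and Glrx5 differed by 0.012 (SE 0.063), 0.0044 (SE 0.064) and 0.078 (SE 0.086).

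Of 12 genes of TNF signalling 10 were tested, 9 had a positive difference, and the median was 0.055. The 0 called are again to be read against the 0.138% of all tested rows. Those with the smallest p were Traf2, an adaptor of TNF receptors (0.15, SE 0.068), Nfkb1, an NF-kappaB subunit (−0.13, SE 0.064), and Nfkbia, its inhibitor (0.24, SE 0.12), each at a limma adjusted p of 0.738. Tnf itself was at 0.448 FPKM on average in PCOS and 0.548 FPKM in control hearts and was not tested. Of 4 genes whose human products have been named as partners of SH3BGRL3 or SH3BGRL, Erbb2 and Grb2 were tested and differed by 0.056 (SE 0.071) and 0.030 (SE 0.060), and neither was called.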

How the data were processed

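RNA of 11 heart samples was sequenced from stranded mRNA libraries (TruSeq), per the labels. The authors deposited FPKM values, 1 per gene model and sample. The submitters' processing notes name Trimmomatic 0.38, HISAT2 2.2.1, HTSeq 0.13.5, DESeq2 1.18.1 and the build mm10; settings and counted strand are not given in the sources used here. RefSeq accessions were matched to symbols of GRCm38.p6 for 87.2% of 21878 rows. FPKM steps gave whole reads (tolerance 0.02) in 15939 of 15939 rows above 0 in 3 or more samples, 11866291 to 14346620 reads per sample.

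limma 3.58.1 in R 4.3.3 was fitted to log2(FPKM + 1), with a trend, keeping rows whose mean FPKM reached 1, and p-values were adjusted by Benjamini-Hochberg over all 10891 rows. Differences are PCOS minus control. Member levels were compared by exact sign-flip tests and group-centred values by 100000 permutations within groups (scipy 1.17.1, numpy 2.4.6). The fits and tests were tested on simulated data. Sh3bgr had no row, so 2 level steps and 3 pairs were tested, fewer than planned. Relations with marker sums were added after the data were seen. Named genes were the members, the 3 most alike rows for each, the nearest tested neighbours, and the 3 smallest p of each pathway list. Of a marker list set beside a result, the most abundant gene and that with the smallest p are named. One gene that this rule names is not reported here. Other genes were named after their values were seen. Members and lists were chosen with earlier results of these data known. Alternatives covered the pseudocount, the filter, scaling, a replicate block, weights, a robust prior, voom on recovered reads and leaving out samples.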

Additional observations from a re-analysis of the deposited data

Results flagged for a closer look

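Among 28 groups of values checked for a sample far from the rest of its group, 4 stood out. For a single group of normally distributed values chance gives about 1 in 20. The 28 groups share libraries and values, so their number cannot be set against that rate. Control replicate 6 was far above the other controls in Sh3bgrl3, at 39.5 FPKM against 28.4 to 30.1 FPKM. The same library was far above the other controls in the hepatocyte marker sum, at 1707 FPKM against 4.78 to 12.9 FPKM. It was also above them in the smooth muscle and pericyte marker sum, at 369.6 FPKM against 221.6 to 263.8 FPKM. Among PCOS hearts, replicate 5 was far above the others in the smooth muscle and pericyte sum, at 357.2 FPKM against 266 to 285.1 FPKM.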

How the results depend on the processing

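The number of called members, 1 with all 11 samples, was 0 without the filter, with the filter at a mean FPKM of 5, after median-ratio scaling, with voom on recovered reads and without control libraries 2 and 5. It was 0 to 1 over fits with 1 sample left out. The Sh3bgrl3 difference was then 0.51 without the filter (limma adjusted p = 0.0877), 0.51 with the filter at 5 (adjusted p = 0.0652), 0.51 after median-ratio scaling (adjusted p = 0.0723), 0.53 with voom (adjusted p = 0.0709) and 0.48 without control libraries 2 and 5 (adjusted p = 0.385). Leaving out 1 sample gave 0.48 to 0.58. The Sh3bgrl difference changed sign with the replicate block (0.061), with sample weights (0.0053), without control replicate 6 (0.061) and without control libraries 2, 5 and 6 (0.10), and ran from −0.16 to 0.061 with 1 sample left out. With the replicate number as a block the Sh3bgrl3 difference was 0.58 (limma adjusted p = 0.00316) and 25 rows were called. Control replicate 6 has no partner and drops out of that fit, so the like fit is that without it, with the same difference and 32 rows called, against 15 with all samples and no block. The labels name no pairing of samples by number. Deviations of same-numbered samples correlated by −0.12 to 0.25 over 5 pairs, and 0 of 5 PCOS samples matched their own number best. With so few samples these values cannot settle whether the numbers pair them. With PCOS samples only, 0 of the 2 level steps could pass. The number of member pairs that varied together, 1 of 3, was 0 without the 2 farthest samples and without control libraries 2, 5 and 6, and 0 to 2 when 1 sample was left out. Without the 2 farthest samples, r of Sh3bgrl3 was −0.11 with Sh3bgrl and −0.10 with Sh3bgrl2. The number of member and marker relations that passed, 1 of 24, was 6 by Spearman's rho, 0 without the 2 farthest samples and 0 to 2 when 1 sample was left out. The causes were not tested. Counting error limits Sh3bgrl2 most, at 33 to 74 reads per sample.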
